A study of Mus musculus with 16 samples.

Results

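The FGF receptor genes Fgfr1, Fgfr2 and Fgfr3, the ligand genes Fgf1, Fgf2 and Fgf18, and the feedback genes Spry1, Spry2, Spry4 and Dusp6 were followed through tumour initiation in mouse tail epidermis. These 10 genes were taken by name from the 18193 genes on the array that had a probe set mapped to 1 symbol alone. They held 21 of the 34945 such probe sets. A probe set is a group of oligonucleotides that together read 1 transcript, and its signal is given on a log2 scale, where 1 unit is a doubling.

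FGF ligands bind FGF receptor tyrosine kinases together with heparan sulfate, and the active receptor signals through docking and adaptor proteins to RAS and the kinases MEK and ERK. Sprouty proteins, encoded by the Spry genes, dampen this route downstream of the receptor, and the phosphatase DUSP6 removes phosphate from ERK. Both kinds of inhibitor are themselves switched on by ERK activity, so their transcripts are widely used as a readout of signalling as well as being part of it. In skin, FGFR2 and its dermal ligands support keratinocyte growth and hair follicle development, and FGFR3 is a keratinocyte receptor whose activated forms are known from benign epidermal growths.

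The cells came from tail epidermis of mice of mixed strain background. By the source labels, all groups carried the conditional SmoM2 allele, an activated form of the hedgehog transducer Smoothened, linked to YFP in the Rosa locus. The series text speaks of littermate controls, and whether these had the genotype on the labels was not settled here. In K14CREER/Rosa-SmoM2-YFP mice, where the K14 promoter drives a tamoxifen-inducible Cre, basal cells of the interfollicular epidermis (IFE) were sorted from untreated mice (IFE control, n = 3, called WT in the sample descriptions). After tamoxifen, SmoM2-positive IFE cells of the same genotype were sorted at 3 days (1 array), at 1 week and at 4 weeks (3 arrays each), and at 10 weeks (2 arrays). The β-catenin loss group (n = 2) carried b-cat flox/flox in addition and was sorted at 4 weeks. Bulge and outer root sheath cells came from K19CREERT2/Rosa-SmoM2-YFP mice, untreated (n = 1) or 4 weeks after tamoxifen (n = 1). The source label of the untreated bulge sample speaks of SmoM2-positive cells; it is read here by its title, as a control. The comparison over time addresses how SmoM2-expressing cells depart from control epidermis as tumours develop, and the loss group how far this needs β-catenin. SmoM2, tamoxifen, elapsed time and sorting on YFP change together against the controls and cannot be told apart, and no group had lost β-catenin without SmoM2. The labels give no ages and do not say whether mice were pooled or whether replicates were separate mice, so the spread behind each p-value may be partly technical.

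Promoter sequence is shown for the 2 members that passed the test and for Dusp6, whose levels spread most between groups. Each stretch is the 250 bases before the annotated transcription start in RefSeq (GRCm38.p6), read in the direction of the gene, and 7 of the 10 members had an entry. Fgfr3 had a second entry, chr5:33722056-33722305 (plus strand), which is not shown and held none of the motifs. The motifs searched, on both strands, were the GLI site GACCACCCA of the hedgehog pathway, the TCF/LEF cores CTTTGA and CTTTGT of the β-catenin pathway, and the ETS site CCGGAA of the ERK pathway. Capitals mark the single match among these entries, a CTTTGT in the Spry2 stretch whose first base lies 137 bases before the start. The positions are chr5:33721474-33721723 (plus strand) for Fgfr3, chr14:105896820-105897069 (minus strand) for Spry2 and chr10:99262981-99263230 (plus strand) for Dusp6.
Fgfr3: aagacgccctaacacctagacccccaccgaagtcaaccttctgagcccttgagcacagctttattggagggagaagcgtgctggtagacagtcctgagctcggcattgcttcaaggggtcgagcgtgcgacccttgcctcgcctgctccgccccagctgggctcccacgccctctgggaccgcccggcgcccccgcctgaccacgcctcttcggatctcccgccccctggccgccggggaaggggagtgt
Spry2: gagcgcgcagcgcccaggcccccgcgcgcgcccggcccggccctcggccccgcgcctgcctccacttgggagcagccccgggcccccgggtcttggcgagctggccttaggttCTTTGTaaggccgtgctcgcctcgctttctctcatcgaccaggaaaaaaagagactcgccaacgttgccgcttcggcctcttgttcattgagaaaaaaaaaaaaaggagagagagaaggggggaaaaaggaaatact
Dusp6: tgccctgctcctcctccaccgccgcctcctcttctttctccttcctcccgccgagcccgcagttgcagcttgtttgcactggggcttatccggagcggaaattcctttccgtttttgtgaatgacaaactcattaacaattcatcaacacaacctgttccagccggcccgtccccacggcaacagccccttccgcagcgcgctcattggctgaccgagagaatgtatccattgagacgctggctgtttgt
Among 32851 RefSeq promoter stretches of this length, 0.225% held GACCACCCA, 13.8% CTTTGA, 16.5% CTTTGT and 12.0% CCGGAA. The Spry2 match is therefore a common one. The absence of the other letters describes these windows only.

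The sorted cells carried keratinocyte signal. Krt5 and Krt14, the keratins of basal epidermis, lay between 12.83 and 14.23 on all 14 IFE arrays. Cd34, a surface marker of bulge stem cells, was at 9.72 in the bulge control and 6.83 in the bulge SmoM2 array, against 3.78 to 4.15 in the IFE controls. The mean of the 9 listed bulge markers was 10.42 and 10.21 on these bulge arrays, against 8.12 to 8.50 in IFE controls. Of that list, Nfatc1 (6.19 against 7.91 to 9.05) and Postn (11.30 against 12.13 to 12.68) were lower in the bulge control than in IFE controls. Array medians lay between 5.38 and 5.53. The arrays numbered 2 of the control, 1-week and 4-week groups had a narrower spread of signal (SD 2.18 to 2.20) than the other 13 (2.25 to 2.27). Same-numbered arrays of these 3 groups deviated together, so values with the replicate number as a block are given where they change a call. Signal depends on the probes, so levels are compared between samples and not between genes.

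**Figure D1:**
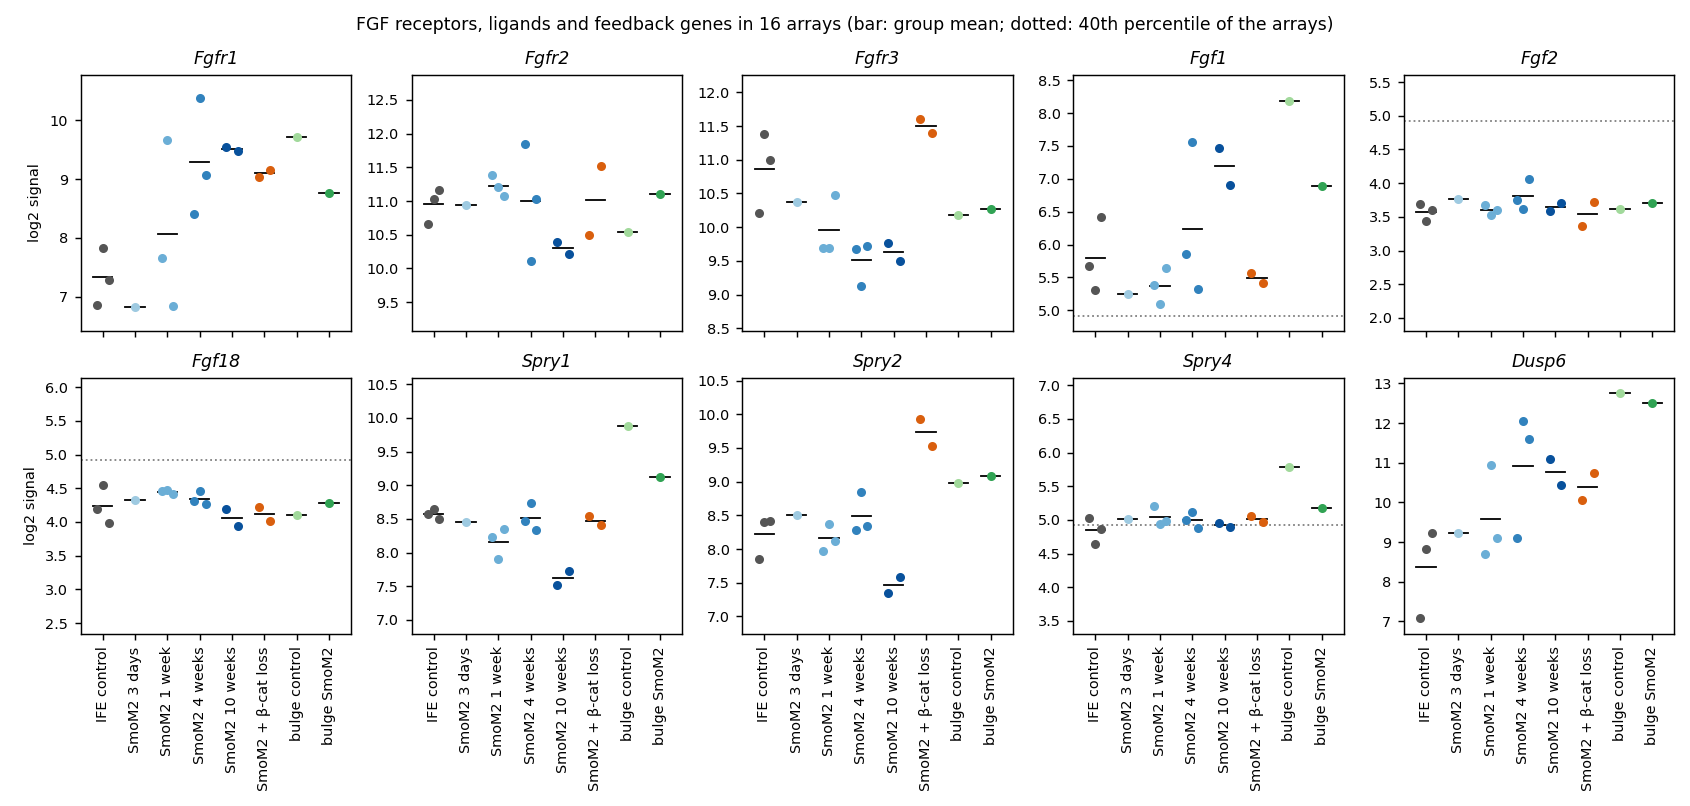
Log2 signal (vertical axes) of each of the 10 genes in the 8 groups (horizontal axes), from the probe set of highest mean; each point is 1 of 16 arrays, bars are group means, and the dotted line is the mean 40th percentile of the arrays. Fgfr3 is lowest at 4 and 10 weeks and highest after β-catenin loss, Spry2 is highest after β-catenin loss, Dusp6 is highest in the bulge, and Fgf2 and Fgf18 stay under the dotted line throughout.

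Of the receptors, Fgfr3 fell in SmoM2 cells and was high when β-catenin was lost as well. Its signal was 10.22, 11.38 and 11.00 in the 3 controls, 10.38 at 3 days, 9.69, 9.69 and 10.47 at 1 week, 9.68, 9.13 and 9.72 at 4 weeks, and 9.77 and 9.50 at 10 weeks. The β-catenin loss arrays read 11.60 and 11.40. All 4-week and 10-week arrays thus lay below the lowest control, and both loss arrays lay above the highest control, the lower of them barely. The group means ran from the loss group (11.50 ± 0.14, SD, n = 2) through control (10.86 ± 0.59, n = 3) and 1 week (9.95 ± 0.45, n = 3) to 10 weeks (9.64 ± 0.19, n = 2) and 4 weeks (9.51 ± 0.33, n = 3). Of these neighbours, loss and control did not differ beyond the test (0.64 ± 0.35 SE, adjusted p = 0.429), nor did control and 1 week (adjusted p = 0.724).

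At 4 weeks Fgfr3 was 2.56-fold below control, a change of −1.35 ± 0.31 on the log2 scale (limma with Benjamini-Hochberg adjustment over 14287 genes, adjusted p = 0.0409, lower in 3 of 3 arrays). In the same comparison 3.24% of all genes tested passed in either direction and 0.798% were lower. At 10 weeks the difference was of like size (−1.23 ± 0.35) and did not pass (adjusted p = 0.146). With β-catenin loss the level was 3.97-fold above SmoM2 alone at 4 weeks (1.99 ± 0.35, adjusted p = 0.0235, higher in 2 of 2 arrays), where 2.15% of genes passed in either direction and 0.616% were higher. The 4-week arrays enter this difference and the one from control with opposite sign, so the fall and the rise are not independent. In these bulk samples, fewer cells of a type and less RNA per cell cannot be told apart. The dimmer Fgfr3 probe set ran in parallel: 6.09, 6.58 and 6.82 in the controls, 5.38, 5.18 and 5.62 at 4 weeks, and 7.72 and 6.84 in the loss group. Tested as 26066 separate probe sets, both Fgfr3 probe sets rose in the loss group against SmoM2 alone (1.99, adjusted p = 0.0308, and 1.89, adjusted p = 0.0267; background 1.3%). At 4 weeks against control neither passed in that test (adjusted p = 0.0611 and 0.0855; background 1.58%).

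The 4-week call for Fgfr3 was lost without any 1 of 4-week replicates 1, 2 or 3 (adjusted p = 0.0742, 0.129 and 0.0582) or control replicates 2 or 3 (0.156 and 0.140), and without the arrays numbered 2 the change was −0.91 (0.264). The loss-group call was lost without loss replicate 1 (0.205) or 2 (0.0550). Sebaceous gland markers moved the same way as Fgfr3 at 4 and 10 weeks and after β-catenin loss: the mean of the 6 of 7 listed genes with a value was 9.50 to 10.28 in controls, 7.72 to 9.78 at 4 weeks, 8.61 to 8.98 at 10 weeks and 10.40 to 10.78 after β-catenin loss, and at least 4 of the 6 were above the 40th percentile on every array. It was 10.51 at 3 days and 9.68 to 10.30 at 1 week, where Fgfr3 was already lower by mean. The mean of the 7 basal epidermis genes was 12.03 to 12.14 in controls, 11.40 to 11.55 at 4 weeks, 11.64 to 11.69 at 10 weeks and 11.72 to 12.05 after β-catenin loss. The part of these lists in the result was not tested.

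Fgfr1 leaned the other way, with higher readings in SmoM2 cells from 4 weeks on, with or without β-catenin, that did not pass the test. The controls read 6.87, 7.84 and 7.29, the 3-day array 6.82, and the 1-week arrays 7.66, 9.67 and 6.84. At 4 weeks the values were 8.40, 10.38 and 9.07, at 10 weeks 9.55 and 9.49, and after β-catenin loss 9.03 and 9.16. Each array of the last 3 groups lay above every control, whereas the 1-week group was split, with replicate 2 alone far above the controls. Against control the difference was 1.95 ± 0.64 at 4 weeks (adjusted p = 0.138), 2.19 ± 0.71 at 10 weeks (0.213) and 1.77 ± 0.71 after β-catenin loss (0.279), so none passed. With the replicate number as a block, the 4-week difference passed (adjusted p = 0.0464). Without the arrays numbered 2, a fit added after seeing the data, the 4-week, 10-week and loss differences from control passed. The loss group and SmoM2 alone differed by −0.19, with a 95% interval from −1.75 to 1.37, which does not show that they were alike. The other Fgfr1 probe sets differed from control by 1.03 and 0.88 at 4 weeks and by 1.71 and 0.71 at 10 weeks, and none of these passed (lowest adjusted p = 0.0570).

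Fgfr2, the keratinocyte receptor for the dermal ligands, did not change detectably. Its controls read 10.66, 11.03 and 11.16 and its 4-week arrays 11.85, 10.11 and 11.03, so the 4-week group spanned the control range on both sides. The difference was 0.05, with a 95% interval from −0.79 to 0.89. The 10-week arrays, at 10.39 and 10.21, lay below all controls (−0.65 ± 0.43, adjusted p = 0.719), and the loss arrays read 10.50 and 11.52. The probe sets were not assigned to splice forms here, so the epithelial and mesenchymal forms of the receptor were not told apart.

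Among the ligands, Fgf1 alone gave a signal that could be followed. It read 5.67, 5.31 and 6.43 in controls, 5.25 at 3 days, 5.39, 5.09 and 5.65 at 1 week, 5.85, 7.56 and 5.32 at 4 weeks, and 7.47 and 6.91 at 10 weeks. Both 10-week arrays and 4-week replicate 2 were above all controls, and the loss arrays, at 5.57 and 5.41, were within the control range. The 10-week difference of 1.39 ± 0.54 did not pass (adjusted p = 0.330). The other Fgf1 probe sets read 4.96 and 4.95, and 6.11 and 6.13, on the 10-week arrays, above their controls (4.29 to 4.76 and 4.77 to 5.39). The first of these was near the floor, above the 40th percentile on 5 of 16 arrays. Neither 10-week difference passed in limma over all probe sets (0.39 and 0.96, adjusted p = 0.881 and 0.202). Fgf2 lay between 3.36 and 4.07 and Fgf18 between 3.94 and 4.55 on all 16 arrays. Their single probe sets were below the 40th percentile on every array, so neither was tested, and no level can be read for them.

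**Figure D2:**
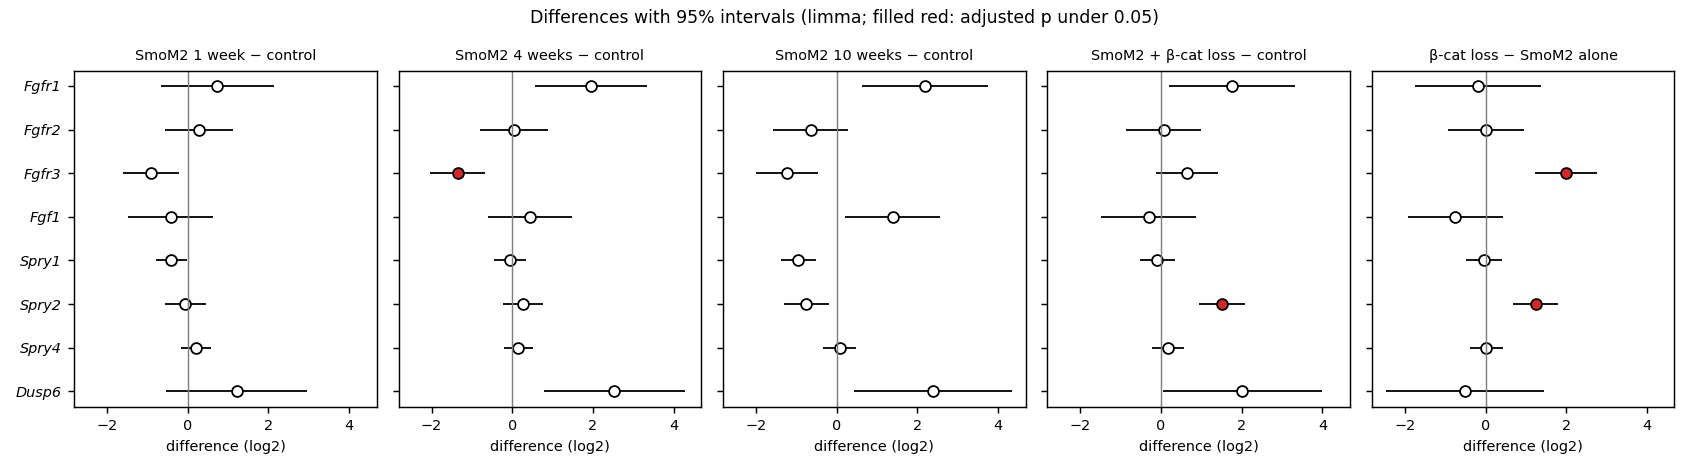
Differences in log2 signal (horizontal axes) for the 8 tested genes (vertical axis) in 5 comparisons, with 95% intervals from limma; filled red points passed an adjusted p of 0.05. The red points are Fgfr3 below control at 4 weeks, Spry2 above control after β-catenin loss, and both above SmoM2 alone after β-catenin loss.

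Of the feedback inhibitors, Spry2 stood out in the β-catenin loss group. It read 7.85, 8.41 and 8.42 in controls, 8.51 at 3 days, 7.97, 8.38 and 8.13 at 1 week, 8.28, 8.84 and 8.34 at 4 weeks, and 7.35 and 7.59 at 10 weeks. The loss arrays, at 9.94 and 9.52, were above all other IFE arrays, and the 10-week arrays were below all of them. Spry2 rose 2.84-fold against control (1.51 ± 0.26, adjusted p = 0.0390, higher in 2 of 2 arrays; 0.371% of all genes passed) and 2.37-fold against SmoM2 alone (1.24 ± 0.26, adjusted p = 0.0385). SmoM2 alone at 4 weeks differed from control by 0.26, with a 95% interval from −0.24 to 0.77. The 10-week level was 0.75 below control on the log2 scale by mean (7.47 ± 0.17 against 8.22 ± 0.33, SD) and did not pass (adjusted p = 0.247).

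The call against control was lost on leaving out any 1 of the 5 arrays compared (adjusted p = 0.0563 to 0.281). The call against SmoM2 alone was lost without loss replicate 1 (0.335), loss replicate 2 (0.0564), or 4-week replicates 1 (0.0764) or 3 (0.0690). The same probe set passed among all probe sets in both comparisons (adjusted p = 0.0425 and 0.0472; backgrounds 0.345% and 1.3%). The dimmer Spry2 probe set read 5.62 and 5.77 in the loss group against 5.20 to 5.42 in controls, and its difference from SmoM2 alone was 0.46 (adjusted p = 0.335). The melanocyte list, 8 of 8 genes with a value, had a mean of 5.54 to 5.55 in the loss group against 7.09 to 9.14 in controls and 6.29 to 7.61 at 4 weeks. At 10 weeks, where Spry2 was lowest, the list was low too, at 5.72 to 6.52. The mean of the sebaceous gland list was high in the loss group, as Spry2 was (10.40 to 10.78 against 9.50 to 10.28 in controls). It was low at 10 weeks, as Spry2 was (8.61 to 8.98). At 4 weeks it was 7.72 to 9.78, where Spry2 was not lower than control by mean. The part of these lists in the Spry2 result was not tested.

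Spry1 was lowest at 10 weeks, without passing the test. The controls read 8.57, 8.65 and 8.50, the 3-day array 8.46, the 1-week arrays 8.23, 7.91 and 8.35, the 4-week arrays 8.46, 8.74 and 8.33, the loss arrays 8.54 and 8.41, and the 10-week arrays 7.52 and 7.72. Both 10-week arrays were below every other IFE array. The difference from control was −0.95 ± 0.20 (adjusted p = 0.0606, lower in 2 of 2 arrays), just short of the threshold, and −0.89 ± 0.20 from 4 weeks (adjusted p = 0.579). It passed when the genes were read as the mean of their probe sets, with fewer genes tested (adjusted p = 0.0436), when only the control and 10-week arrays entered the fit (0.0298), with array weights (0.00146) and without the arrays numbered 2 (0.0491). On leaving out each array in turn the adjusted p was 0.121 to 0.638.

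Dusp6, the ERK phosphatase, had the widest range of the 10 genes. It read 7.09, 8.82 and 9.23 in controls, 9.22 at 3 days, 8.70, 10.94 and 9.11 at 1 week, 9.10, 12.04 and 11.58 at 4 weeks, 11.09 and 10.43 at 10 weeks, and 10.06 and 10.73 after β-catenin loss. All 10-week and loss arrays were above the controls, while 4-week replicate 1 lay within the control range. The difference from control was 2.53 ± 0.80 at 4 weeks (adjusted p = 0.126), 2.38 ± 0.90 at 10 weeks (0.309) and 2.02 ± 0.90 after β-catenin loss (0.328), none of which passed. The 4-week difference passed with the replicate number as a block (adjusted p = 0.0481), as did Fgfr1 and Fgfr3, against 6.11% of all genes in that fit. It also passed without 4-week replicate 1 (3.44, adjusted p = 0.0486).

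Other marker lists moved with Fgfr1 and Dusp6 in some groups and not in others. The mean of the 10 immediate-early genes, all with a value, was 9.50 to 10.29 in controls. At 4 weeks it was 9.09 in replicate 1, where Dusp6 was low but Fgfr1 was above all controls. It was 11.34 and 11.14 in replicates 2 and 3, where Dusp6 was high. It was 10.23 to 11.09 at 10 weeks. In the loss group, where both genes lay above every control, the list was not above its control range, at 9.09 to 10.17. The mean of the 9 bulge markers, all with a value, was 8.12 to 8.50 in controls, 9.38 to 10.22 at 4 weeks, 9.87 to 9.99 at 10 weeks and 8.61 to 9.31 in the loss group. In 1-week replicate 2, where both genes were high, the bulge list was at 9.90 and the immediate-early list at 10.53. Their part in the results was not tested. The 8 dermal fibroblast genes, all with a value, had a mean of 5.18 to 5.59 in controls, 5.72 to 6.11 at 4 weeks and 4.89 to 5.11 after β-catenin loss. Of 7 fibroblast genes tested, 1 passed as higher at 4 weeks. Among the fibroblast genes Dcn read 8.67 to 9.22 in controls and up to 12.98 on IFE arrays, Col1a2 5.70 to 6.69 and up to 8.38, and Col1a1 at most 4.81. Of the 9 bulge markers, 3 passed as higher at 4 weeks and 2 at 10 weeks, none passed as lower, and 8 and 7 had a positive difference. Among them Lhx2 read 6.86 to 7.65 in controls and up to 11.97 on IFE arrays, Lgr5 6.13 to 6.78 and up to 10.82, and Cd34 3.78 to 4.15 and up to 5.63.

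Spry4 was near the floor in IFE cells. Its probe set of highest mean read 4.64 to 5.21 on the 14 IFE arrays, where the 40th percentile was 4.88 to 5.01, and no comparison passed (4 weeks against control 0.15, with a 95% interval from −0.21 to 0.52).

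Counted over the 8 members tested, calls were few. None passed at 3 days or 1 week, at 4 weeks against 1 week, or at 10 weeks against 4 weeks, where limma called 0% of all genes. At an unadjusted p under 0.05 these comparisons held 0, 2, 0 and 2 of the 8 members, against backgrounds of 1.55%, 4.74%, 4.82% and 6.26%. The unadjusted count was 3 of 8 at 4 weeks (background 15.1%), 6 of 8 at 10 weeks (10.6%), 3 of 8 after β-catenin loss against control (14.6%) and 2 of 8 against SmoM2 alone (17.2%). The 10-week members were Fgfr1, Fgf1 and Dusp6, which were higher, and Fgfr3, Spry1 and Spry2, which were lower, yet none passed after adjustment, where 0.7% of all genes did. Groups that did not overlap with control at all were found for 1 of 8 members at 1 week (background 7.48%), 2 of 8 at 4 weeks (17.3%), 7 of 8 at 10 weeks (37.3%) and 4 of 8 after β-catenin loss (33.7%). Against SmoM2 alone, 2 of 8 did not overlap (28.6%). The members' share at 10 weeks was above its background by both counts, and the other shares rest on 1 to 4 genes. The members were chosen with earlier results of these data known, so these shares are a description and no test of the set. The 1-week, 4-week, 10-week and loss comparisons share the 3 controls. The 4-week arrays enter the 4-week comparison with control and, with opposite sign, the loss comparison with SmoM2 alone.

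In the bulge, where hair follicle stem cells reside, Dusp6, Spry1, Fgf1 and Fgfr1 were high against IFE controls without tamoxifen. Dusp6 read 12.74 in the bulge control against 7.09 to 9.23 in the IFE controls, Spry1 9.88 against 8.50 to 8.65, Fgf1 8.19 against 5.31 to 6.43, and Fgfr1 9.71 against 6.87 to 7.84. These 4 of 8 members lay at least 1 log2 unit above the highest IFE control, as did 4.89% of all genes. Spry2 was at 8.98, above the IFE controls by less, while Fgfr2 (10.54) and Fgfr3 (10.18) were just below the lowest IFE control. The mean of the immediate-early genes was 11.14 in the bulge control and 11.86 in the bulge SmoM2 array, against 9.50 to 10.29 in IFE controls, and its part in these differences was not tested. With 1 bulge array a condition, these differences have no replicate check.

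Spry4 probe sets differed in how far the bulge stood from IFE cells, and 3 of the 4 were higher in the bulge control than on any IFE array. A probe set that read 3.69 to 4.75 across all IFE arrays was at 8.13 in the bulge control and 7.36 in the bulge SmoM2 array. Another read at most 4.88 in IFE cells and 5.86 and 5.71 in the bulge. The probe set of highest mean read 5.79 in the bulge control, above every IFE array (highest 5.21), and 5.18 in the bulge SmoM2 array, within their range. The fourth read 4.69 and 4.72, within the IFE range. Which of them reads the Spry4 transcript best was not settled here, and the values are given for each.

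**Figure D3:**
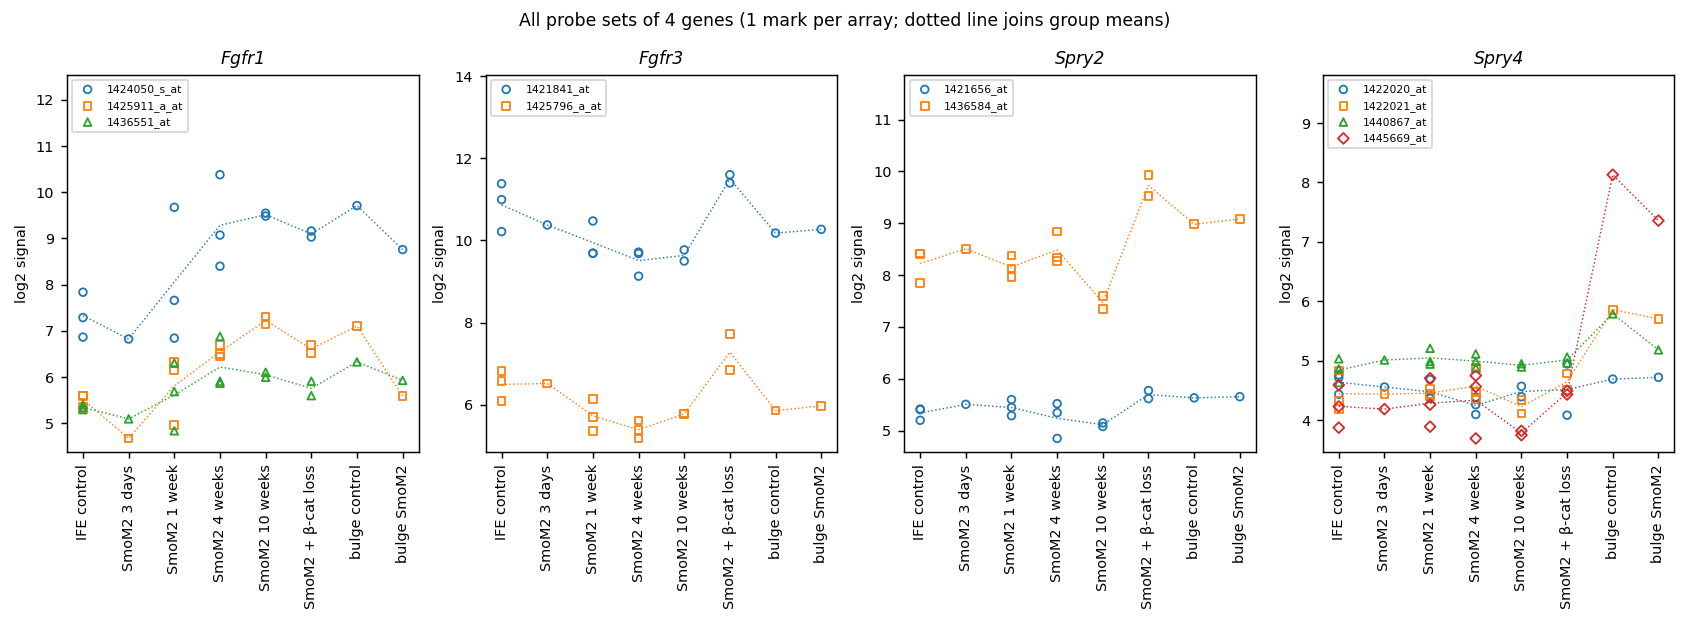
Log2 signal (vertical axes) of every probe set of Fgfr1, Fgfr3, Spry2 and Spry4 in the 8 groups (horizontal axes); each mark is 1 array, and dotted lines join group means. The Fgfr3 probe sets run in parallel, the dim Spry2 probe set stays between 4.85 and 5.77, and 1 Spry4 probe set reaches 8.13 in the bulge where the others stay under 6.

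SmoM2 in the bulge did not repeat the IFE picture for several members. Dusp6 was 12.50 in the bulge SmoM2 array, 0.24 lower than its control on the log2 scale, and Fgfr1 was 8.76, lower by 0.95. Fgf1, at 6.88, was 1.30 lower, the single member of 8 that moved by at least 1 log2 unit, against 6.94% of all genes. Fgfr3 was 10.27, 0.09 higher. The mean signal of 3 Y-linked genes also differed, at 6.35 in the bulge control and 3.48 in the bulge SmoM2 array, and its part was not tested. The difference between the bulge and the IFE response at 4 weeks was tested over all 16 arrays, with the lone bulge arrays assumed to vary like the other groups. It was −2.91 ± 1.28 for Fgfr1 (adjusted p = 0.660), −2.77 ± 1.61 for Dusp6 (0.885) and 1.45 ± 0.63 for Fgfr3 (0.649). None of the 8 members passed, nor did any gene (0%), and at an unadjusted p under 0.05 the test held Fgfr1, Fgfr3 and Spry4, against 7.14% of all genes.

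Around the 10 genes, further components of the pathway were read from 6 lists. Dusp1, Fos, Egr1, Ier2 and Ier3 stand both in these lists and among the immediate-early genes. At 4 weeks, 8 of the 87 listed genes tested rose and 1 fell (backgrounds 2.44% and 0.798%). These calls depended on which arrays were included. None of the 9 remained without control replicate 2 or 3, and 1 without control replicate 1 (Elk3). Without 4-week replicates 1, 2 and 3, 2, 4 and 6 remained. Calls over all genes fell as well, from 463 to 132, 13 and 49 without control replicates 1, 2 and 3. They fell to 139, 237 and 410 without 4-week replicates 1, 2 and 3. The adaptors and RAS-MAPK list had 3 of 17 higher and 0 lower, with a median change of 0.06 against −0.05 for all genes. The feedback list had 3 of 19 higher and 0 lower, with a median of 0.35. The target gene list had 1 of 17 higher and 0 lower (median 0.46), the receptors and co-receptors 1 of 5 higher (median −0.04), the ligands 1 of 9 lower (median −0.08), and the carriers and heparan sulfate genes 0 of 20 (median 0.11).

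The docking protein gene Gab2 read 5.47 to 5.75 in controls and 9.03, 7.10 and 7.71 at 4 weeks (2.35 ± 0.47, adjusted p = 0.0260). Gab1, its relative, rose by 1.58 (0.0371), and Plcg1, the phospholipase that FGF receptors recruit, by 0.86 (0.0399). At 10 weeks these 3 differed from control by 0.19, 0.66 and −0.12, and none passed. Il17rd, a membrane inhibitor of FGF signalling, read 5.89, 5.40 and 6.12 in controls and 8.83, 7.42 and 7.99 at 4 weeks (2.27 ± 0.46, 0.0265). Dusp2, a nuclear ERK phosphatase, rose by 2.17 (0.0280). Flrt2 (2.22, 0.0376) was placed in the feedback list by family, although FLRT proteins are adhesion molecules that bind FGF receptors and have been described as promoting their signal.

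Nrcam, an adhesion molecule listed with the co-receptors, read 4.94 to 5.57 in controls and 11.53, 11.13 and 10.16 at 4 weeks (5.69 ± 1.10, adjusted p = 0.0247), the largest change among the listed genes called. Fgf13, which encodes an intracellular FGF relative that does not act as a ligand of these receptors, read 8.16 to 9.52 in controls and 6.18, 4.52 and 6.35 at 4 weeks (−3.17 ± 0.62, 0.0247). The ETS factor gene Elk3 rose by 1.96 ± 0.40 at 4 weeks (0.0266) and by 2.25 ± 0.44 at 10 weeks (0.0475), where it was the single listed gene to rise (background 0.567%) and none fell. The 10-week call was lost on leaving out any 1 of the 5 arrays compared.

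Of these genes, Il17rd, Dusp2 and Elk3 were low again when β-catenin was lost. The other genes called at 4 weeks did not pass against SmoM2 alone. Nrcam, Gab1 and Gab2 differed from it by −3.96, −1.41 and −1.56, and Flrt2, Plcg1 and Fgf13 by −0.49, −0.30 and −0.29. The 4-week SmoM2 arrays enter this comparison and the one with control with opposite sign, so their spread alone can give mirrored changes. Against SmoM2 alone, 5 of the 87 fell and 1 rose (backgrounds 1.53% and 0.616%). Without loss replicate 1 none of these 6 calls remained, and 2 of all genes passed against 307. Without loss replicate 2, or 4-week replicate 1, 2 or 3, 2, 2, 3 and 2 of the 6 remained, Errfi1 among them each time. Il17rd read 5.71 and 5.99 in the loss group (−2.23 ± 0.51, adjusted p = 0.0492), Dusp2 5.80 and 5.41 (−2.32 ± 0.50, 0.0415) and Elk3 6.19 and 6.76 (−2.19 ± 0.44, 0.0350), within the control range for Il17rd and Elk3 and within or just below it for Dusp2. The neural adhesion molecule Ncam1, read as a co-receptor, was at 5.36 and 5.08 (−3.14 ± 0.62, 0.0332), and Sulf2, which removes sulfate groups from heparan sulfate, at 7.66 and 9.08 (−1.80 ± 0.41, 0.0452). Errfi1, a feedback inhibitor known chiefly for acting on the EGF receptor, was the gene that rose, reading 12.05 and 10.86 against 9.55, 9.28 and 9.28 in SmoM2 alone (2.08 ± 0.37, 0.0235). Among the feedback genes Spry2 and Errfi1 thus rose with β-catenin loss while Il17rd and Dusp2 fell. By list, the loss comparison had 2 of 19 feedback genes lower and 1 higher (median 0.01 against −0.09 for all genes), 1 of 5 co-receptors, 1 of 20 carriers and 1 of 17 targets lower, and no called gene among 17 adaptors and 9 ligands. Against control, none of the 87 listed genes passed in the loss group.

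**Figure D4:**
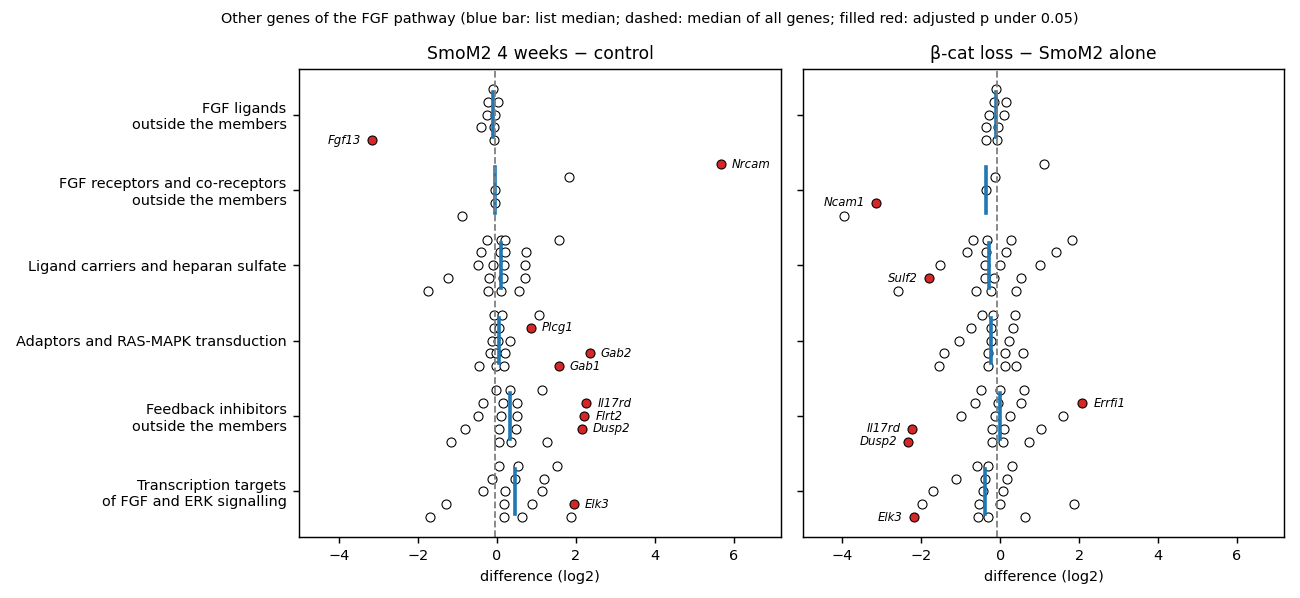
Differences in log2 signal (horizontal axes) for the 87 tested genes of 6 FGF pathway lists (vertical axis), for 4 weeks against control and β-catenin loss against SmoM2 alone; each circle is a gene, blue bars are list medians, the dashed line is the median of all genes, and filled red circles passed an adjusted p of 0.05. Il17rd, Dusp2 and Elk3 are red on the right in the left panel and on the left in the right panel. The 4-week SmoM2 arrays enter both panels, with opposite sign.

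For the 3 members whose group means ranged most widely, the most similar genes were looked up by Pearson correlation over the 16 arrays, as a description without a test. The points share arrays, cell groups and preparation. Dusp6 ran closest to Tmsb10 (r = 0.964), Midn (0.945) and Fam171a2 (0.927). Fgf1 ran closest to Mkx (0.899), Col8a2 (0.875) and Cpne8 (0.867), and Fgfr1 to Cadm1 (0.925), Ankrd10 (0.920) and Mical3 (0.910). Fgfr1 and Dusp6 themselves correlated at r = 0.810.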

How the data were processed

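Per the labels' protocols, RNA of sorted epidermal cells was amplified by in vitro transcription for Affymetrix mouse arrays. The authors deposited 1 table of log2 values for 45101 probe sets on 16 arrays, a scale read from their range. R 2.14.0 is named in the submitters' processing notes. How signals were corrected, normalized and summarised is not given in the sources used here. Precision is limited by the number of arrays.

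Of the probe sets, 34945 had 1 gene, 932 several and 9160 none in the platform annotation, besides 64 array controls. For each gene the probe set with the highest mean was used, and genes were tested if above the array's 40th percentile on at least 2 arrays (14287 genes, 26066 probe sets). No further normalization was applied. Groups came from the titles. Group means over the 14 IFE arrays were fitted with limma 3.58.1 in R 4.3.3 (11.6 degrees of freedom), and p-values were adjusted by Benjamini-Hochberg at 0.05. The script was tested on simulated data. Single arrays were assumed to vary like the other groups.

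Deviations of same-numbered control, 1-week and 4-week arrays correlated in all 9 pairs (r from 0.343 to 0.697, against −0.532 to −0.0021 for different numbers). The main fit took no account of this pairing. A fit with the replicate number as a block was run as an alternative. The members and lists were chosen with earlier results of these data known. All 10 members are named, with up to 4 genes per pathway list past the threshold, by size of change (otherwise the gene of lowest adjusted p), and the 3 most similar genes of the 3 widest-ranging members. Alternatives were quantile normalization, no filter, probe set means, array weights, an intensity trend, only the groups compared, replicate blocks and leaving out arrays. The fits without the arrays numbered 2, with Y-linked signal as a covariate, and over all 16 arrays were added after seeing the data.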

Additional observations from a re-analysis of the deposited data

Results flagged for a closer look

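For 4 members, the difference between SmoM2 and control arrays at 4 weeks had opposite signs in the single bulge pair and in all 3 IFE arrays, set against the mean of their controls. Of these, Fgfr3 alone passed the test in IFE cells. The share of all genes meeting this opposite-sign rule was not counted, so the count is not a result about the members. Each bulge difference is between single arrays, and its sign can rest on a small value, as for Fgfr3 and Dusp6. The bulge difference minus the IFE difference, on the log2 scale, was −2.91 for Fgfr1 (IFE 1.95, bulge −0.95), −2.77 for Dusp6 (2.53 and −0.24), 1.45 for Fgfr3 (−1.35 and 0.09) and −0.76 for Spry4 (0.15 and −0.61). None passed the test of that difference in limma over 16 arrays (adjusted p = 0.660, 0.885, 0.649 and 0.660).

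For 2 members, the 4-week difference from control was higher with SmoM2 and β-catenin loss than with SmoM2 alone. The difference with β-catenin loss minus that without was 1.99 for Fgfr3 and 1.24 for Spry2, with limma adjusted p = 0.0235 and 0.0385. The control arrays cancel in it, so this is the loss comparison with SmoM2 alone given above. Both calls depended on which arrays were included, as stated there. No group lost β-catenin without SmoM2, so a changed SmoM2 response cannot be told from an effect of the loss itself.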

How the results depend on the processing

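No member changed direction in any comparison with an unadjusted p under 0.05 under the alternatives run, but calls sat close to the threshold. At 4 weeks 1 member passed. With the replicate number as a block the count was 3 by title or by experiment number (Dusp6, Fgfr1, Fgfr3), a pairing that changed no other count of member calls. It was 0 with array weights, with no filter or with only the groups compared, and 0 to 1 on leaving out each array. The member called was not always Fgfr3. It was Dusp6 without 4-week replicate 1, and Fgfr1 without the arrays numbered 2. At 10 weeks 0 passed, against 6 with array weights, 1 with probe set means, 2 (Fgfr1, Spry1) with only the groups compared, and 2 without the arrays numbered 2. After β-catenin loss against control 1 passed (Spry2), against 0 with probe set means, quantile normalization, only the groups compared or the Y-linked covariate, 2 without the arrays numbered 2, and 0 on leaving out any array. Against SmoM2 alone 2 passed, against 0 with array weights or only the groups compared, 1 (Fgfr3) with quantile normalization or the Y-linked covariate, and 0 to 2 on leaving out each array. The causes were not tested.

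Over their alternatives the Fgfr3 change at 4 weeks was −1.68 to −0.91 (adjusted p 0.0293 to 0.264) and its change with β-catenin loss 1.80 to 2.15 (0.0101 to 0.205). The Spry2 change was 0.93 to 1.71 against control (0.0305 to 0.281) and 0.85 to 1.45 against SmoM2 alone (0.0194 to 0.335). Y-linked signal, the mean of 3 genes, was uneven between groups. It was 3.41, 8.18 and 3.43 in the controls, 7.55 at 3 days, and 8.26, 3.34 and 7.38 at 1 week. At 4 weeks it was 8.41, 7.58 and 6.02, at 10 weeks 8.10 and 8.15, and after β-catenin loss 3.39 and 6.91. The bulge control read 6.35 and the bulge SmoM2 array 3.48. Counts of genes called moved by over 1.5 times as well: 463 at 4 weeks became 873 with the block by title and 13 without control replicate 2, and 100 at 10 weeks became 1545 with array weights. Fgf2 and Fgf18 were too dim to follow.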
